A study of Saccharomyces cerevisiae with 30 samples.

Results

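The genes described here are those of the proteins of the small (40S) cytosolic ribosomal subunit of Saccharomyces cerevisiae, RPS0A to RPS31. They were listed by systematic name, from YGR214W (RPS0A) to YLR167W (RPS31), with no cut on a measured value. The family itself was chosen with earlier results of these data known. There are 56 of them among the 7126 genes counted, namely 24 pairs of paralogous copies (A and B) and 8 genes with a single copy. The study asked how the m6A methyltransferase Ime4p acts on mRNA levels and on the polysome-associated pool of mRNA in meiosis. Diploid SK288C cells (MATa/MATα, his3Δ1, leu2Δ0, lys2Δ0 and ura3Δ0, with the TAO3(E1493Q) and MKT1(D30G) alleles) were kept for 5 h in SPO media, in which potassium acetate brings cells into meiosis. Cells homozygous for ime4-cat, which encodes a catalytically inactive Ime4p with the changes D348A and W351A, were compared with wild-type (WT) IME4/IME4 cells, and both were homozygous for rme1-S288C. The third strain, rme1-10, is IME4/IME4 and carries RME1 with the A+129T change in the 3′ UTR, counted from the stop codon.

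A ribosome holds a small subunit that reads the mRNA and a large subunit that joins amino acids. The RPS proteins fold and stabilize the 18S rRNA, and line the mRNA channel, the decoding centre and the surfaces where initiation factors bind. In yeast the ribosomal protein genes are transcribed together in response to nutrients, through Rap1p, Fhl1p and Ifh1p, and their mRNAs are among the most abundant of growing cells and fall when cells starve. Most of these genes were retained as pairs after a duplication of the whole genome, and many hold 1 intron, which is rare among other yeast genes.

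Where copies are nearly identical, a read that matches both is not assigned to either, so the deposited counts miss part of their reads. Of the 56 genes, 38 had at least 90% of their 50-base windows unique in the genome (RefSeq, R64 build). Among the least unique pairs were RPS6A and RPS6B with 27.3%, RPS4A and RPS4B with 52.3%, and RPS24A and RPS24B with 61.5%. The protein was the same in both copies of 9 of the 24 pairs. The sequences that follow are 30-base windows of the spliced coding sequence, shown because the results for these 3 pairs turn on which copy a read belongs to. Capitals mark the bases at which the copies differ, and positions are counted from the first base of the start codon. For RPS6 (bases 112 to 141), no window of this length that starts at a codon had more differences than this one, which had 2. RPS6A lies on chromosome XVI at 377291 to 378395 and RPS6B on chromosome II at 591712 to 592774, both on the minus strand.
RPS6A: ggtgaagccgttggtgaCgaattcaagggT
RPS6B: ggtgaagccgttggtgaTgaattcaagggC
For RPS27 (bases 157 to 186) the copies were well separated, with 9 differences. RPS27A lies on chromosome XI at 158613 to 159212 (plus strand) and RPS27B on chromosome VIII at 147871 to 148669 (minus strand).
RPS27A: gcAgtTacCtgCgaatcCtgctcAacAAtT
RPS27B: gcTgtCacTtgTgaatcAtgctcTacTGtC
For RPS28 (bases 4 to 33) there were 7 differences. RPS28A lies on chromosome XV at 648804 to 649007 (minus strand) and RPS28B on chromosome XII at 673131 to 673334 (plus strand), and neither has an intron.
RPS28A: gatAACaaAaccccagtcacTttagcCaaG
RPS28B: gatTCTaaGaccccagtcacCttagcTaaA

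The RNA-seq data are 18 libraries, 3 for each combination of strain and RNA fraction (polysomal, or total RNA before fractionation). In 6 of them, 3 ime4-cat and 3 WT polysomal libraries, the title and the file name give the same genotype and fraction, and only these were tested. In the other 12 the title disagrees with the file name, which gives a strain number that the study's strain list assigns to a genotype and a letter for the fraction. These 12 were placed in no group, and are given by file name with the title beside it. Sets by file name are written cat-p, rme-p and WT-p (letter p, polysome) and cat-t, rme-t and WT-t (letter t, total) for the strain numbers of ime4-cat, rme1-10 and WT. The counts on genes were 586141 to 916345 in the ime4-cat and 680599 to 1262397 in the WT polysomal libraries, and 650668 to 6009889 in the other 12, while 57.5% to 94.3% of all entries were alignments that were not unique. One library, cat-t replicate 3, titled WT input, stood apart. Its highest correlation with any other library was 0.914 (log2 CPM, 5891 genes), against at least 0.96 for each of the other 17, and results that rest on it are given with and without it.

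In polysomal RNA, the 40S protein genes took a larger share of the gene counts in ime4-cat than in WT cells. Their summed counts were 5800, 5397 and 4794 in the ime4-cat libraries, against 5431, 3855 and 6382 in the WT libraries, and overlapped before scaling to library size. Their share of all gene counts was 0.633%, 0.921% and 0.815% in the ime4-cat libraries, against 0.519%, 0.566% and 0.506% in the WT libraries (replicates 1 to 3 of each). The 3 ime4-cat values were all above the 3 WT values, and the means were 0.79% ± 0.146 and 0.53% ± 0.0316 (SD, n = 3 each). The 95% binomial intervals (exact Clopper-Pearson, counting error only) were at most 0.025 percentage points to either side, so the spread among the ime4-cat libraries exceeded counting error. The genes of the large subunit had shares of 0.852%, 1.22% and 1.08% in the ime4-cat libraries and 0.682%, 0.801% and 0.697% in the WT libraries.

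**Figure D1:**
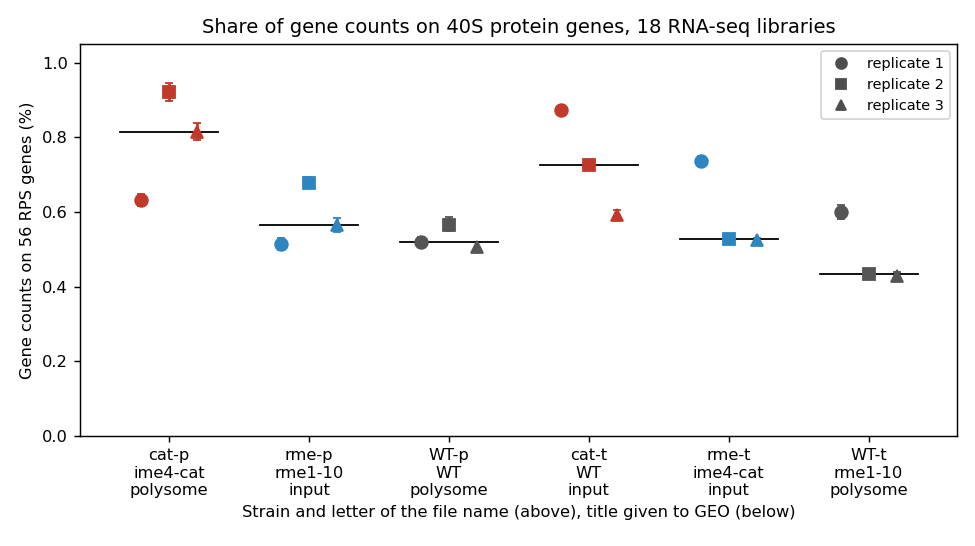
Share of gene counts (%) on the 56 40S protein genes in each of the 18 RNA-seq libraries. Points are libraries (marker by replicate number), error bars are exact 95% binomial intervals and lines are medians of 3. The ime4-cat polysomal libraries (cat-p) sit between 0.633 and 0.921 and the WT polysomal libraries (WT-p) between 0.506 and 0.566. For the 4 sets of rme-p, cat-t, rme-t and WT-t the title and the file name disagree.

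Gene by gene, 28 of the 55 genes tested rose in ime4-cat cells (50.9%) and none fell, by the quasi-likelihood test of edgeR (p adjusted by Benjamini-Hochberg over 5493 genes, threshold 0.05). Across all genes, 8.28% were called higher and 9.38% lower (455 higher and 515 lower, or 346 and 593 without TMM factors). Without adjustment, 43 of the 55 had a p under 0.05. The estimated log2 fold change was above 0 in all 55, with a range of 0.15 to 1.30 and a median of 0.67 (1.59-fold), while the median over all genes tested was -0.01. All 3 ime4-cat libraries were above all 3 WT libraries for 27 of the 55 genes (49.1%), against 15.2% of all genes. None of the 55 had them all below, against 947 of all 5493 genes tested. RPS28B was the only gene left out by the filter on low counts. In these bulk cultures, a larger share of cells that had not entered meiosis and more RPS mRNA per cell cannot be told apart.

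The number of calls depended on single libraries. It was 6 without WT replicate 3, 15 without ime4-cat replicate 3, 18 without ime4-cat replicate 2 and 45 without ime4-cat replicate 1, with no 40S protein gene lower in any of them. The share of all genes called higher was 3.71%, 4.8%, 6.65% and 8.74% in the same fits, in that order. The median log2 fold change stayed between 0.46 and 0.81 in the fits that left out 1 library. Of the 28 genes, 5 were called in all 6 such fits, among them RPS7A, RPS16B, RPS18B and RPS19A. The ime4-cat libraries differed among themselves in the same order for most genes. Replicate 1 had the lowest ime4-cat value for 51 of the 55 genes and replicate 2 the highest for 47. Among the WT libraries too, replicate 2 had the highest value for most genes (42), while replicates 1 and 3 had the lowest for 29 and 23. Of the ime4-cat libraries, replicate 1 was above all 3 WT libraries for 27 genes, replicate 2 for 54 and replicate 3 for 52.

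**Figure D2:**
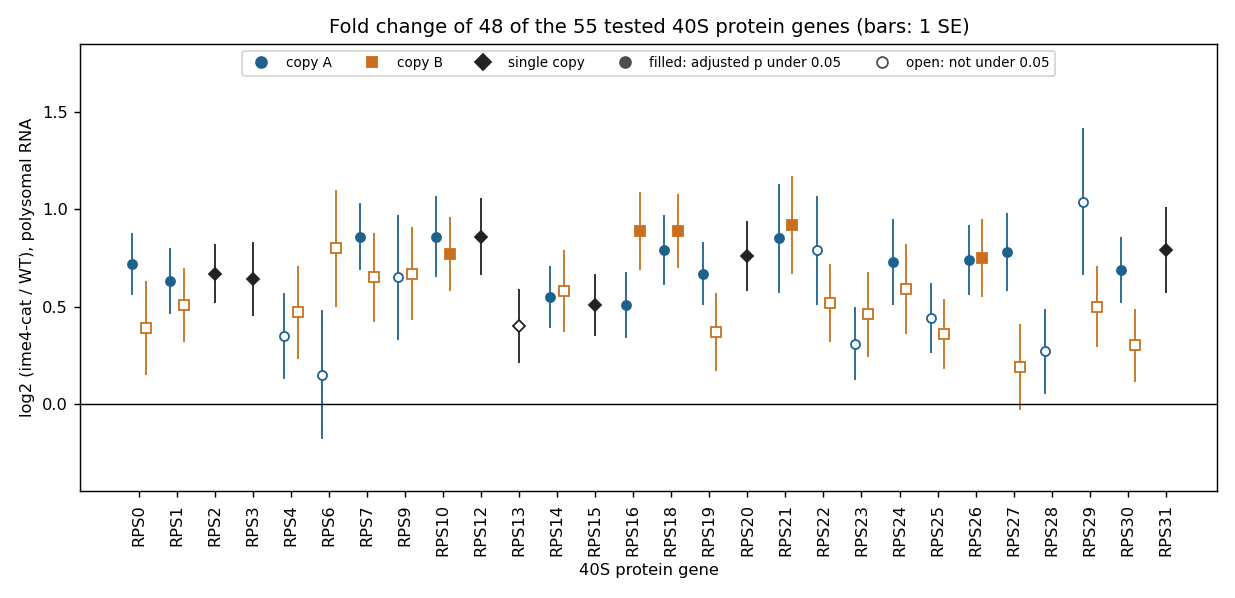
Log2 fold change (ime4-cat over WT, polysomal RNA) of 48 of the 55 tested 40S protein genes by protein number, with bars of 1 SE. Circles are A copies, squares B copies and diamonds single-copy genes, filled where the adjusted p was under 0.05 (24 of the 48). All estimates lie above 0, between 0.15 (RPS6A) and 1.04 (RPS29A).

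The 8 single-copy genes are free of the loss of reads between copies, and 7 of them rose. RPS2 and RPS3 encode proteins at the entry of the mRNA channel. RPS2 had 210, 140 and 147 counts in ime4-cat cells, against 195, 96 and 179 counts in WT cells. In TMM-scaled CPM (a count divided by the scaled library size) it averaged 246 ± 20.9 in ime4-cat and 154 ± 20.8 in WT cells (SD, n = 3 each). The groups did not overlap in CPM, and the log2 fold change was 0.67 ± 0.15 (SE, adjusted p = 0.0041). RPS3 had 155, 268 and 230 CPM in ime4-cat cells, against 131, 167 and 120 CPM in WT cells. Here ime4-cat replicate 1 fell within the WT range, and the log2 fold change was 0.64 ± 0.19 (adjusted p = 0.023).

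RPS15, RPS20 and RPS12 encode proteins of the head and beak of the subunit. RPS15, whose protein is needed to export the pre-40S particle from the nucleus, had 269, 418 and 318 CPM in ime4-cat cells, against 254, 230 and 217 CPM in WT cells. The groups did not overlap, and the log2 fold change was 0.51 ± 0.16 (adjusted p = 0.034). RPS20 had 140, 227 and 212 CPM in ime4-cat cells, against 130, 106 and 99.9 CPM in WT cells, again without overlap (log2 fold change 0.76 ± 0.18, adjusted p = 0.0063). RPS12, which lies in the beak, had 184, 347 and 316 CPM in ime4-cat cells, against 132, 195 and 138 CPM in WT cells. Its ime4-cat replicate 1 was below WT replicate 2, and the log2 fold change was 0.86 ± 0.20 (adjusted p = 0.0053).

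RPS31 encodes a fusion of ubiquitin to a ribosomal protein, which is cleaved after synthesis. It had 140, 334 and 235 CPM in ime4-cat cells, against 121, 155 and 128 CPM in WT cells, with ime4-cat replicate 1 inside the WT range and a log2 fold change of 0.79 ± 0.22 (adjusted p = 0.016). RPS13, which takes part in the contacts between the subunits, was the only single-copy gene that did not pass the threshold. It had 102, 144 and 148 CPM in ime4-cat cells, against 91.5, 121 and 86.9 CPM in WT cells, and a log2 fold change of 0.40 ± 0.19 (adjusted p = 0.15, or 0.029 without ime4-cat replicate 1).

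All 7 calls on single-copy genes were lost without WT replicate 3, where the adjusted p was 0.053 for RPS2, 0.16 for RPS3, 0.06 for RPS12, 0.17 for RPS15, 0.064 for RPS20 and 0.10 for RPS31 (edgeR). RPS3, RPS15 and RPS31 were also lost without ime4-cat replicate 2, with adjusted p of 0.099, 0.19 and 0.12 in that order. Without ime4-cat replicate 3 these 3 genes had adjusted p of 0.096, 0.076 and 0.07, and RPS15 had 0.07 without WT replicate 2 and 0.052 without TMM factors. The 8 estimates stayed above 0 under every alternative setting, with a range of 0.30 to 1.12.

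Among the genes with the highest log2 fold changes was RPS29A (YLR388W). It encodes a short zinc-binding protein of the head, and its estimate rests on few counts. It had 14, 8 and 18 counts, or 14.8, 14.9 and 31.1 CPM, in ime4-cat cells, against 10, 7 and 12 counts, or 9.06, 10.7 and 9.15 CPM, in WT cells. The groups did not overlap, but the adjusted p was 0.065 (log2 fold change 1.04 ± 0.38).

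RPS21B, RPS18B and RPS16B followed. RPS21B had 65.5, 157 and 110 CPM in ime4-cat cells, against 48.9, 72.2 and 52.6 CPM in WT cells, and a log2 fold change of 0.92 ± 0.25 (adjusted p = 0.014). Its lowest ime4-cat library was under the highest WT library, and the call was lost without WT replicate 3 (adjusted p = 0.096), ime4-cat replicate 2 (0.086) or ime4-cat replicate 3 (0.067). RPS18B, whose protein contacts the large subunit from the head, had 96.1, 144 and 124 CPM in ime4-cat cells, against 56.2, 78.3 and 61.7 CPM in WT cells. RPS16B, whose protein reaches the tRNA in the P site, had 108, 201 and 150 CPM in ime4-cat cells, against 78.8, 93.7 and 73.2 CPM in WT cells. Neither gene overlapped between the groups, and the log2 fold changes were 0.89 ± 0.19 for RPS18B (adjusted p = 0.0026) and 0.89 ± 0.20 for RPS16B (adjusted p = 0.004).

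At the other end were genes whose ime4-cat and WT levels overlapped. RPS6A, one copy of the gene of the TORC1-responsive phosphoprotein Rps6p, had 14.8, 28.0 and 19.0 CPM in ime4-cat cells, against 19.9, 20.0 and 14.5 CPM in WT cells (log2 fold change 0.15 ± 0.33, adjusted p = 0.82). With 11 to 15 counts in the ime4-cat and 13 to 22 in the WT libraries, its depth was among the lowest. RPS27B had 62.3, 87.6 and 105 CPM in ime4-cat cells, against 79.7, 89.1 and 54.9 CPM in WT cells (0.19 ± 0.22, adjusted p = 0.62). RPS28A had 66.5, 138 and 82.9 CPM in ime4-cat cells, against 70.7, 72.2 and 85.4 CPM in WT cells, so that ime4-cat replicate 1 was the lowest of all 6 libraries (0.27 ± 0.22, adjusted p = 0.44). These 3 estimates turned to the other sign when 1 library was left out. RPS6A had -0.10 without ime4-cat replicate 2 and -0.02 without WT replicate 3, RPS27B had -0.01 without WT replicate 3, and RPS28A had -0.06 without ime4-cat replicate 2, none past the threshold.

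RPS30B, which encodes a small basic protein near the decoding site, had 76.0, 110 and 107 CPM in ime4-cat cells, against 87.0, 73.7 and 72.4 CPM in WT cells (0.30 ± 0.19, adjusted p = 0.31). RPS23A, whose protein lies at the decoding centre, had 191, 321 and 192 CPM in ime4-cat cells, against 150, 223 and 192 CPM in WT cells (0.31 ± 0.19, adjusted p = 0.30). For both genes ime4-cat replicate 1 lay within the WT range.

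**Figure D3:**
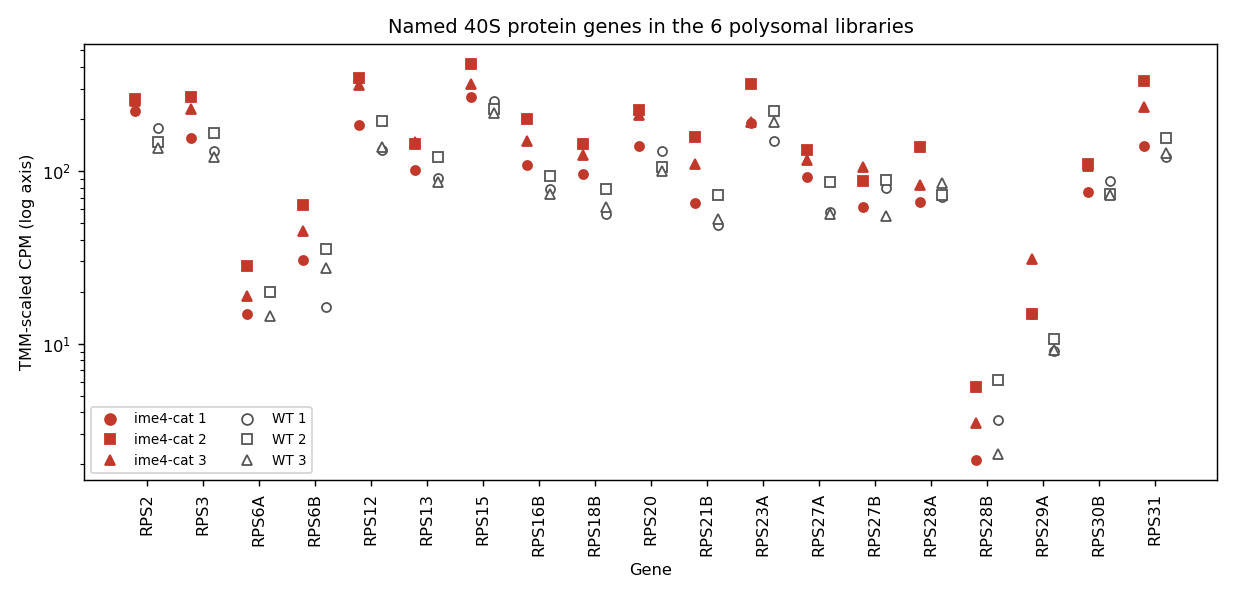
TMM-scaled CPM (log axis) of the named 40S protein genes in the 6 polysomal libraries, ime4-cat (filled) left of WT (open), marker by replicate number. RPS18B does not overlap between the genotypes (96.1 to 144 against 56.2 to 78.3 CPM), while RPS27B, RPS28A and RPS6A do, and RPS28B lies below 7 CPM in each.

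The other paralogous genes are given by the place of their proteins. Among those whose proteins form the platform and the mRNA exit, RPS0A rose by 0.72 ± 0.16 (adjusted p = 0.0037), RPS1A by 0.63 ± 0.17 (0.015), RPS14A by 0.55 ± 0.16 (0.024), RPS26A by 0.74 ± 0.18 (0.0064) and RPS26B by 0.75 ± 0.20 (0.012), in log2 units. Of their partners, RPS0B had 0.39, RPS1B 0.51 and RPS14B 0.58, none past the threshold. In the head and at the mRNA entry, both copies of RPS10 rose (0.86 ± 0.21 for RPS10A and 0.77 ± 0.19 for RPS10B, adjusted p = 0.0066 each), as did RPS18A (0.79 ± 0.18, 0.005) and RPS19A (0.67 ± 0.16, 0.0048), and RPS16A passed closely (0.51 ± 0.17, 0.047). RPS19A varied little among replicates, with 132, 140 and 140 CPM in ime4-cat cells, against 86.1, 84.5 and 86.1 CPM in WT cells. In the body, RPS7A (0.86 ± 0.17, adjusted p = 0.0014), RPS24A (0.73 ± 0.22, 0.028), RPS21A (0.85 ± 0.28, 0.043) and RPS30A (0.69 ± 0.17, 0.0061) rose. For RPS16A and RPS21A the ime4-cat and WT values overlapped. RPS14A, RPS16A and RPS21A were called in only 2 of the 6 fits that left out 1 library, and RPS1A and RPS24A in 3. Neither copy of RPS4, RPS9, RPS22 or RPS23 passed the threshold. Their estimates lay between 0.31 (RPS23A) and 0.79 ± 0.28 (RPS22A, adjusted p = 0.052). RPS25A, the gene with the highest WT level per kilobase of coding sequence (725 CPM per kb among the 38 genes with at least 90% unique windows), had 0.44 ± 0.18 (adjusted p = 0.10).

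Among the 23 pairs with both copies tested, both rose in 6, 1 in 9 and neither in 8, and the copies differed by a median of 0.15 in log2 fold change. A copy past the threshold beside one that is not does not show that the copies differ, and the differences were not tested.

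For RPS6 the difference in log2 fold change, copy B minus copy A, was 0.65. RPS6B had 30.6, 63.4 and 44.9 CPM in ime4-cat cells, against 16.3, 35.3 and 27.4 CPM in WT cells (0.80 ± 0.30, adjusted p = 0.073, with 0.041 without WT replicate 2 and 0.0085 without ime4-cat replicate 1). Its groups overlapped, and only 27.3% of its windows were unique. For RPS27 copy A had the larger estimate, by 0.59. RPS27A had 91.9, 132 and 116 CPM in ime4-cat cells, against 58.0, 86.0 and 56.4 CPM in WT cells, without overlap (0.78 ± 0.20, adjusted p = 0.0091, or 0.092 without WT replicate 3). Copy A held 52.3% to 60.2% of the RPS27 reads in ime4-cat and 42.1% to 50.7% in WT polysomal libraries. RPS27 was named because its copies differed in these same libraries, so the separation of the shares is no further evidence. By file name, the share was 52.2%, 54.2% and 59.9% in the cat-t and 58.3%, 55% and 52.2% in the WT-t libraries. These overlapped with or without cat-t replicate 3.

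The estimates were above 0 in each class of members. The median log2 fold change was 0.72 over the 37 tested genes with at least 90% unique windows (22 higher) and 0.56 over the 18 others (6 higher). It was 0.66 over the 36 genes with an intron (18 higher) and 0.67 over the 19 tested genes without one (10 higher). It was 0.72 over the 8 single-copy genes and 0.65 over the 47 tested genes of pairs (21 higher).

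Other gene lists are given by their counts and medians in the same fit, to be read against the 8.28% of all genes called higher and the 9.38% called lower. The large-subunit genes had 40 higher and none lower of 79 tested, with a median log2 fold change of 0.58. Of 30 tested 40S assembly factors 1 was lower and none higher (median 0.10), namely SNU13, a component of small nucleolar RNPs and the spliceosome (-0.80 ± 0.24, adjusted p = 0.027). Of 23 tested factors that bind the 40S subunit, mostly in initiation, 2 were higher and 2 lower (median -0.01), which is near the shares over all genes in both directions and no result about the list. They were STM1, a ribosome-binding protein of starved cells (0.81 ± 0.14, adjusted p = 0.00041), ASC1, the yeast RACK1 homologue on the 40S head (0.71 ± 0.19, 0.012), HCR1, an eIF3-associated factor (-0.68 ± 0.15, 0.0023) and SUI3, the beta subunit of eIF2 (-0.62 ± 0.17, 0.016). Of 32 tested genes of the mitochondrial small subunit only MRP4 was called (0.68 ± 0.21, adjusted p = 0.027), with a median of -0.05.

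Of the 18 regulators of ribosomal protein genes, CRF1, a corepressor of these genes under TORC1 control, was higher (0.68 ± 0.15, adjusted p = 0.0027) and RAP1, which binds their promoters, was lower (-0.94 ± 0.17, adjusted p = 0.00053). With 1 of 18 called in each direction the list was under the shares over all genes, and its median was -0.13. Early meiotic genes were lower. Of 27 tested, 26 were lower and none higher, with a median of -1.73 and the largest decreases for MEI5 (-2.87 ± 0.18) and SPO13 (-2.43 ± 0.19). Their share of gene counts was 0.260%, 0.204% and 0.227% in the ime4-cat libraries, against 0.758%, 0.642% and 0.767% in the WT libraries. In both genotypes replicate 2 had the highest share of 40S protein counts and the lowest share of early meiotic counts, and the part of meiotic progress in the result was not tested. RME1 was higher (1.02 ± 0.16, adjusted p = 0.00014) and IME1 lower (-0.86 ± 0.16, adjusted p = 0.0008), while IME4, whose ime4-cat allele differs by point changes that leave reads countable, so that its level does not check the labels, had -0.51 ± 0.18 (adjusted p = 0.058).

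Promoters of the genes, taken as 250 bases before to 50 after the start codon in the R64 build, were searched on both strands for the core letters of the sites of Rap1p (ACCCNNACA) and Fhl1p (GACGC). The Rap1p letters were found for 4 of the 56 genes (7.1%, against 2.8% of 6026 promoters), which were RPS1A, RPS10B, RPS13 and RPS19A. The Fhl1p letters were found for 18 of the 56 (32.1%, against 17.7%). The Rap1p letters of RPS1A, RPS13 and RPS19A began 245, 230 and 246 bases before the start codon, near the edge of the search. Bases further upstream were not searched, so these shares do not give how many promoters hold a site.

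The 12 libraries with disagreeing labels were placed on one scale with the 6 others (TMM over 5891 genes, all 56 members included) and are described by file name, without a test. For the cat-t libraries, titled WT input, the share of gene counts on 40S protein genes was 0.872%, 0.727% and 0.593%, and for the WT-t libraries, titled rme1-10 polysome, it was 0.599%, 0.433% and 0.429%. The 2 sets overlapped through cat-t replicate 3, the library that stood apart, which lay below WT-t replicate 1. Of the 56 genes, 25 had all cat-t above all WT-t libraries and none all below, against 13.3% of all genes higher and 14.2% lower. Their median log2 ratio of set medians was 0.85. Without cat-t replicate 3, 52 of 56 lay wholly higher and none wholly lower, against 23.2% and 23.1% of all genes, with a median of 0.96. Early meiotic genes took 0.244%, 0.220% and 0.539% of gene counts in the cat-t and 0.859%, 0.801% and 0.879% in the WT-t libraries.

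The shares in the libraries of the rme1-10 strain number overlapped those of the WT strain number. The rme-p libraries, titled rme1-10 input, had 0.514%, 0.678% and 0.564% of gene counts on 40S protein genes, which overlapped the 0.506% to 0.566% of the WT-p libraries, and the rme-t libraries, titled ime4-cat input, had 0.737%, 0.528% and 0.524%, which overlapped the WT-t libraries. For rme-p against WT-p, 3 of the 56 genes lay wholly higher, against 4.84% of all genes, and the median log2 ratio was 0.14. For rme-t against WT-t, 9 of 56 lay wholly higher, also against 4.84% of all genes, and the median was 0.30. No gene of the 56 lay wholly lower in either, against 4.11% (rme-p) and 4.33% (rme-t) of all genes. Replicate 1 had the highest 40S protein share in each of the cat-t, rme-t and WT-t sets.

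Within a strain number, the p and t sets overlapped for most of the genes, and RPS28B (YLR264W) was the only one that lay wholly lower in p for each strain number when all libraries were used. Without cat-t replicate 3 this held for 3 genes, RPS28B, RPS1A and RPS30A. How many of all genes lay wholly lower in p for every strain number was not counted, so these counts have no background. RPS28B had 2.18, 5.78 and 3.49 CPM in cat-p, 2.28, 5.17 and 4.54 CPM in rme-p and 3.67, 6.28 and 2.31 CPM in WT-p libraries. In the t sets it had 21.1, 25.8 and 30.7 CPM (cat-t), 26.9, 17.8 and 24.3 CPM (rme-t) and 17.7, 23.1 and 17.0 CPM (WT-t). The 9 p libraries all lay below the 9 t libraries, and the log2 ratio of medians, p over t, was -2.89, -2.42 and -2.27 for cat, rme and WT. Without cat-t replicate 3 the lowest cat ratio among the 56 genes was -2.75. By titles alone, the low libraries were those titled ime4-cat polysome, WT polysome and rme1-10 input, and the high ones those titled WT input, ime4-cat input and rme1-10 polysome. In the 6 tested libraries RPS28B had 2 to 3 counts in ime4-cat and 3 to 4 in WT cells, a depth at which a difference was not detectable. RPS28B encodes a 40S protein almost identical to that of RPS28A (98.5% of residues), and in yeast its mRNA is known as a target of the decay factor Edc3p.

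RPS28A, with the same coding length of 204 bases, had 68.6, 143 and 83.7 CPM in cat-p, 59.2, 98.2 and 83.3 CPM in rme-p and 71.5, 73.8 and 86.1 CPM in WT-p libraries. In the t sets it had 170, 111 and 87.7 CPM (cat-t), 172, 99.6 and 105 CPM (rme-t) and 152, 95.2 and 103 CPM (WT-t). The p set lay wholly below the t set for rme and WT and overlapped it for cat, and the log2 ratios were -0.40, -0.34 and -0.49. The share of RPS28 reads on copy A was 92.2% to 97.4% in the 9 p and 74.1% to 89.6% in the 9 t libraries (80.5% to 89.6% without cat-t replicate 3).

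**Figure D4:**
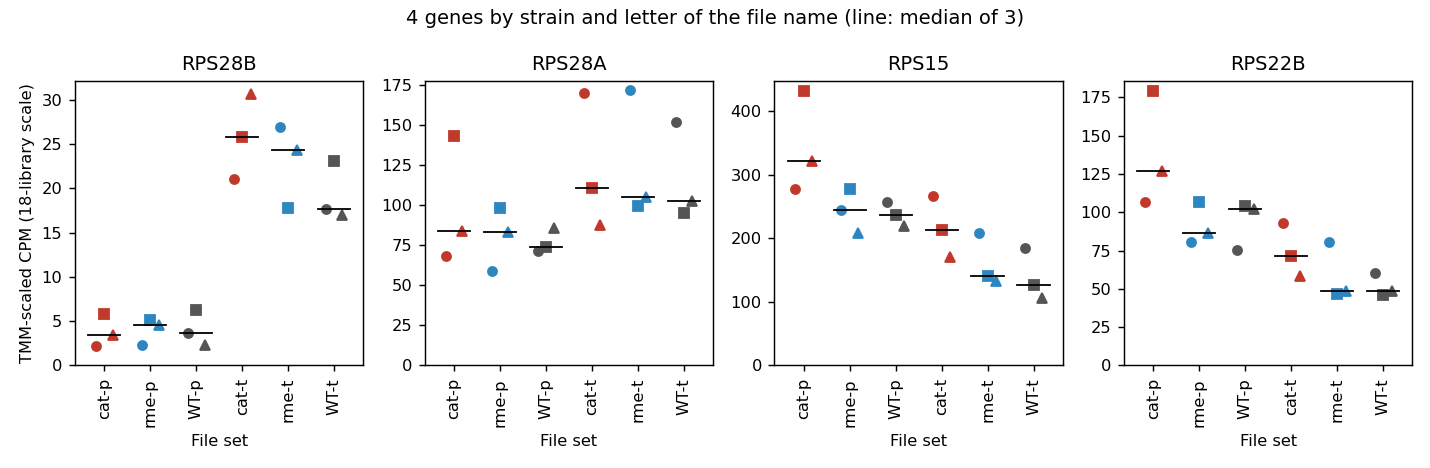
TMM-scaled CPM (18-library scale, linear axis from 0) of RPS28B, RPS28A, RPS15 and RPS22B in each library, by strain number and letter of the file name. Points are libraries, lines medians of 3. RPS28B lies between 2.18 and 6.28 CPM in the p sets and between 17.0 and 30.7 CPM in the t sets, and RPS15 and RPS22B have higher medians in the p set of each strain number.

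RPS15 and RPS22B were the only genes of the 56 with all p above all t libraries for each of the 3 strain numbers. The share of all genes that meet this for every strain number was not counted, so the number of members has no background. RPS15 had a log2 ratio of medians of 0.59 (cat), 0.80 (rme) and 0.91 (WT), with medians of 321, 244 and 236 CPM in the p and 213, 140 and 126 CPM in the t sets in that order. RPS22B, which holds an intron, had 0.83, 0.84 and 1.07, with medians of 127, 86.3 and 102 CPM in the p and 71.5, 48.4 and 48.7 CPM in the t sets. Its partner RPS22A had ratios of -0.04, 0.35 and 0.26. The cat ratios here use all 3 cat-t libraries, and replicate 3 was the lowest of them for RPS15 (266, 213 and 170 CPM) and RPS22B (93, 71.5 and 58.2 CPM). Without it RPS15 and RPS22B were still the only 2 genes wholly higher in p for each strain number. The largest cat ratio among the 56 genes was then 0.63, against 0.83 with it. Of the 56 genes, 8.93% (5), 7.14% (4) and 23.2% (13) lay wholly higher in p than t for cat, rme and WT, against 9.91%, 14.6% and 18.5% of all genes. Wholly lower were 1.79% (1), 8.93% (5) and 10.7% (6), against 10.7%, 16.7% and 19.1%, and without cat-t replicate 3 the share for cat was 19.6% (11), against 17.6%. The share wholly higher for cat was then 8.93% (5), against 15.4% of all genes.

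The 6 genes with the shortest coding sequences (under 210 bases: RPS28A, RPS28B, RPS29A, RPS29B, RPS30A and RPS30B, a limit chosen after the values were seen) had p medians below t medians for all 3 strain numbers. Their median log2 ratio was -0.47, -0.55 and -0.51 for cat, rme and WT, against 0.06, 0.09 and 0.25 over the 50 longer genes, of which 17, 18 and 12 were below 0. All 63 short genes on this scale had medians of -0.32, -0.28 and -0.22. Above 210 bases the ratio did not rise with length, and Spearman's rho over the 50 genes was -0.49, -0.23 and -0.22, as a description across genes measured in the same libraries. The cat values in this paragraph include cat-t replicate 3. Without it, 23 of all 56 genes had a cat ratio above 0, against 33 with it. The median over the 56 was then -0.05, against 0.05. Short and longer genes were not computed apart without this library.

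**Figure D5:**
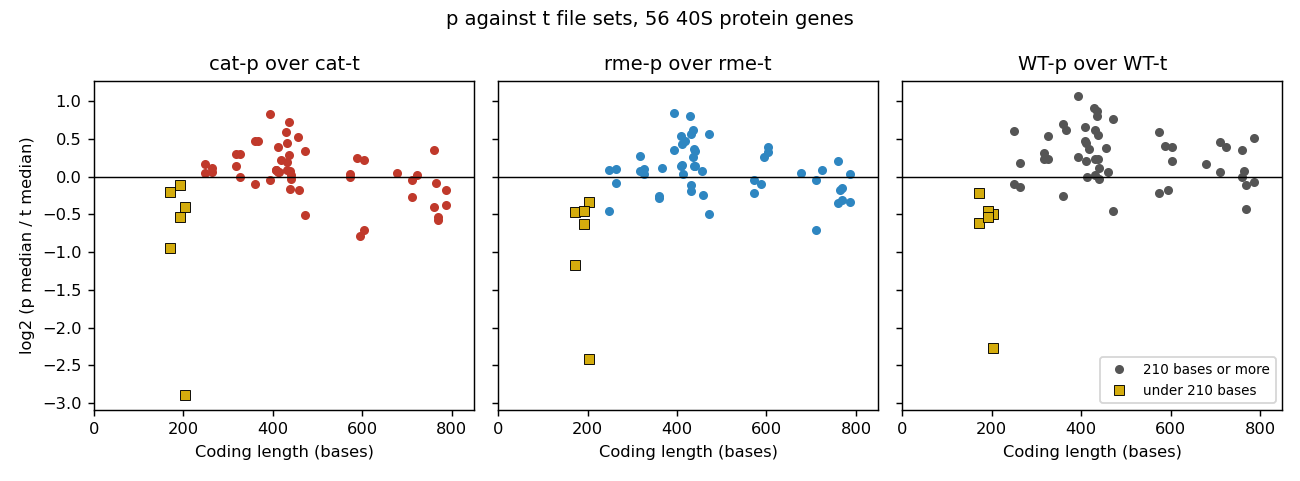
Log2 ratio of the median CPM of the p set over the t set against coding length (bases), for the strain numbers of ime4-cat (cat), rme1-10 (rme) and WT by file name. Each point is 1 of the 56 genes and squares mark the 6 genes under 210 bases, all of which lie below 0. RPS28B is the lowest point in each panel, at -2.89, -2.42 and -2.27.

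The share of a pair's reads on copy A overlapped between the 9 p and the 9 t libraries for 22 of the 24 pairs, with or without cat-t replicate 3, and RPS28 was among the 2 pairs in which it did not. RPS26 and RPS0, picked after their values were seen and not tested, overlapped narrowly. For RPS26 the share on copy A was 64.8% to 79.8% in p and 77.9% to 86.6% in t libraries, and for RPS0 it was 77.8% to 86.7% in p and 70.6% to 78.0% in t. RPS9A was the minor copy of its pair in every library, at 10.5% to 31.5% of the reads, and RPS29A held 7.5% to 42.4%, or at most 24.3% without cat-t replicate 3.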

How the data were processed

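Polysomal and total RNA libraries of yeast cultures (3 biological replicates per condition, as the methods say) were counted by the authors, who deposited raw counts per gene, without normalization. The notes name TopHat2 and sacCer3, and the counting program and strand setting are not given in the sources used here. The 5 closing entries of each table (no feature, ambiguous, not unique and others) were left out. Entries with more than 1 alignment were 57.5% to 94.3% of all. Counts of near-identical copies are incomplete, because a read that matches both is not assigned, and genes with few counts carry wide counting error.

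Counts of 3 ime4-cat and 3 WT libraries were filtered (filterByExpr), TMM-scaled and tested with edgeR 4.0.16 (glmQLFit, glmQLFTest) in R 4.3.3, with Benjamini-Hochberg adjustment. The SE is the log2 fold change divided by the square root of F. The script was tested on simulated data. Alternatives used other scalings, DESeq2 1.42.0, limma 3.58.1, other filters, a block and left-out libraries. Replicate pairs within a set differed by more than sampling noise (chi-square per degree of freedom 1.58 to 22). The m6A-seq samples (12) were not used here.

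The members, lists and tests were chosen with earlier results of these data known. Genes named with all values were the single-copy genes, the 5 highest and 5 lowest estimates, the 3 pairs that differed most and untested genes. From other lists at most the 2 largest changes in each direction were named, with RME1, IME4 and IME1. RPS19A, RPS22B, the short genes and the other pairs were named after their values were seen. Some genes that the rule names are not reported here.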

Additional observations from a re-analysis of the deposited data

How the results depend on the processing

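No 40S protein gene was lower, and their median log2 fold change stayed above 0, in every alternative run. With other scalings, filters or tests, 26 to 32 were higher, beside 5.3% to 8.9% of all genes. At an adjusted p under 0.01 there were 16, with 214 genes higher (3.9%) and 298 lower among all genes. By the DESeq2 Wald test 26 members were higher, and 343 genes higher and 328 lower among all genes. Leaving out 1 library gave 6 to 45 members higher, 203 to 478 of all genes higher and 307 to 488 lower. With the replicate number as a block, 45 members were higher, and 805 genes higher (14.7%) and 800 lower among all genes. Libraries of the same number deviated together (r = 0.523, 0.508 and 0.0881). Each correlated best with its own number (highest other r 0.00906). Deviations from a group mean cancel over the replicates, which lowers the other values where the same-number values are positive. It does not by itself make the same-number values positive. The labels name no shared batch and the third value is under 0.1, so the main fit used no pairing. These values do not show that the libraries were unpaired. The log2 ratio of the mean share of gene counts was 0.57, with 0.58 to 0.63 for other denominators or subsets. Among named genes 4 estimates changed sign, all with adjusted p of at least 0.88: RPS28A (-0.06) and RPS6A (-0.10) without ime4-cat replicate 2, and RPS27B (-0.01) and RPS6A (-0.02) without WT replicate 3. Leaving out 1 library gave -0.06 to 0.52 for RPS28A, -0.01 to 0.42 for RPS27B and -0.10 to 0.40 for RPS6A. The cause was not tested. RPS28B had too few counts in polysomal libraries for any statement between genotypes (-0.08 ± 0.75 without the filter).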
